A study of Homo sapiens with 16 samples.

Results

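Aminoacyl-tRNA synthetases are the enzymes that join each amino acid to its transfer RNA, the step that lets a ribosome read a codon as an amino acid. Human cells encode a cytosolic set and a separate mitochondrial set in the nucleus, and the mitochondrial enzymes are imported to serve the ribosomes inside the organelle. KARS and GARS supply both compartments from a single gene each, and mitochondrial glutaminyl-tRNA is made by amidation instead of a dedicated enzyme, so these 3 amino acids have no separate mitochondrial gene. Several cytosolic synthetases are known targets of ATF4, the transcription factor of the integrated stress response, which is switched on by amino acid shortage and other stresses. Members were chosen by gene name: a letter followed by ARS, EPRS, FARSA and FARSB for the cytosolic group, and a letter followed by ARS2 for the mitochondrial group. This gave 37 genes of the 39550 gene names in the tables, 20 cytosolic and 17 mitochondrial, and all 37 passed the filter on low values. Names are given as in the deposited tables, where AARS, WARS and the like are the genes now called AARS1 and WARS1.

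The cells were A549, a human lung adenocarcinoma line, made to overexpress CD63-Nluc, in which CD63, a tetraspanin found on exosomes, is joined to a luciferase. They received compound 5G6, 6D7 or 7F8, which the labels call inhibitors and whose structures were not given, or the solvent DMSO, for 48 h or 4 h. The labels print 4 µM for every group, DMSO included. Each of the 8 groups (5G6, 6D7, 7F8 and DMSO at 48 h, and the same at 4 h) held 2 replicates, 16 polyA RNA libraries in all, and all groups carried the CD63-Nluc transgene. The study's title names exosome release, AMPK and SREBPs, and the synthetases are read here as part of the wider expression response to these compounds.

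Levels are TPM (transcripts per 1000000), a length-normalised share of the library, recomputed to that sum after genes of chromosome M were left out. The share of TPM on chromosome M was 6.13% and 6.48% in the 6D7 48 h libraries and 18.9% to 32.5% in the other 14, so that group stands apart, and its results against DMSO at 48 h are also given with chromosome M kept. Aligned sequence ran from 6.101 to 8.86 gigabases per library, and 13378 to 14909 genes reached 1 TPM. The A549 markers summed to 7988 and 16841 TPM in 6D7, 9292 and 10248 TPM in 7F8, 14675 and 16394 TPM in 5G6 and 17233 and 18514 TPM in DMSO at 48 h. Of 8 markers of blood, endothelial, fibroblast and red cells, CD14 and COL1A1 were measured at 1.58 to 11.3 and 2.79 to 20.8 TPM, and the other 6 stayed at or below 0.573 TPM. The limma fit ran on log2(TPM + 1) of 15958 genes over all 16 libraries, and called means a Benjamini-Hochberg adjusted p under 0.05. Fold changes are on that scale, which understates change in genes with low levels. A TPM is a share of the mRNA of a library, so less mRNA of a gene per cell and more mRNA of other genes cannot be told apart.

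The promoters of GARS, CARS and IARS are shown because these genes differed between 2 of the compounds, and the promoter of FARSB because its mRNA was lower under all 3. Each window runs from 250 bases before to 50 after an annotated start, read from RefSeq on GRCh38.p14, 5′ to 3′ on the gene's own strand. GARS and CARS each have a second annotated start, whose window held no match to the element described next. Capitals mark the composite C/EBP-ATF element, searched as TGATGNAA and as its reverse complement TTNCATCA, which is the kind of element that ATF4 is known to bind.
GARS, chr7:30594628-30594927, plus strand: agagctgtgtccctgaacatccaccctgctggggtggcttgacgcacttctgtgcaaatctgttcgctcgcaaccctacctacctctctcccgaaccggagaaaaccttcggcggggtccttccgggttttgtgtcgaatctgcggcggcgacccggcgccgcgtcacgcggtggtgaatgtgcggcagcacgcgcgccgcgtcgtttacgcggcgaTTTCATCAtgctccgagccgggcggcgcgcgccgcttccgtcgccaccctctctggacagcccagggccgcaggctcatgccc
CARS, chr11:3057374-3057673, minus strand: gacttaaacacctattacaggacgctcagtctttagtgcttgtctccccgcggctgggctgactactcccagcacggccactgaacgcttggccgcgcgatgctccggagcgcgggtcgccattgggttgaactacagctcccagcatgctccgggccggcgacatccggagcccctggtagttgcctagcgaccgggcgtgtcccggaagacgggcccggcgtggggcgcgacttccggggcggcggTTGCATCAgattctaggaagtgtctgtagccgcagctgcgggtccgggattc
IARS, chr9:92293648-92293947, minus strand: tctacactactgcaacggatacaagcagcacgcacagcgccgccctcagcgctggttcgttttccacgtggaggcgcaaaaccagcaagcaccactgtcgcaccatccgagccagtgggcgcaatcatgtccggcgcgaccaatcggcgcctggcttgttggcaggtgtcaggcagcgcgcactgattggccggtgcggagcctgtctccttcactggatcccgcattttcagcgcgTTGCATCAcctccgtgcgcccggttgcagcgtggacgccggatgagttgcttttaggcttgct
FARSB, chr2:222656043-222656342, minus strand: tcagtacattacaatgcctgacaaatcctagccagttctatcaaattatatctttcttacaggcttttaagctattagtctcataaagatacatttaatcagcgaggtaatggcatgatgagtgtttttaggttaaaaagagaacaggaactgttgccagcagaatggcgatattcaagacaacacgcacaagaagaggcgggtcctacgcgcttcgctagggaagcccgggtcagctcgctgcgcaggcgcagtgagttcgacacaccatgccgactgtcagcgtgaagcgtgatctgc

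The element stood in a window of 7 of the 16 cytosolic synthetase genes that had one (AARS, CARS, GARS, IARS, MARS, NARS and TARS), 43.75%. It stood in 1 of 14 mitochondrial synthetase genes (YARS2, 7.143%) and in 3 of 18 listed ATF4 target genes outside the synthetases (16.667%). Over all genes with a window the share was 4.457%, 1217 of 27305. A match is a description of these letters and not a binding site, and the windows of FARSB and KARS held none. The other 7 members were not analysed here for the element.

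In DMSO at 48 h the cytosolic synthetases ran from 52.2 ± 4.55 TPM for CARS, the cysteine enzyme, to 199 ± 47.1 TPM for AARS, the alanine enzyme (SD, n = 2 libraries). Their median was 107.8 TPM, against 27.8 TPM for the mitochondrial group, which ran from 5.78 ± 0.574 TPM for PARS2, the proline enzyme, to 152 ± 40.3 TPM for IARS2, the isoleucine enzyme. Of the 36 pairs of neighbours in the order of levels, 28 overlapped between their libraries at 48 h and 29 at 4 h, so the order is firm only across wider gaps. IARS2 stood apart from the other mitochondrial genes: IARS was the higher of the pair in only 6 of 16 libraries. CARS exceeded CARS2 in 12 libraries, and the other 16 pairings of a mitochondrial gene with its cytosolic counterpart had the cytosolic gene higher in all 16. No synthetase was called between DMSO at 48 h and DMSO at 4 h (background 0.00%), and 0 had an unadjusted p below 0.05 against 2.35% of all genes.

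**Figure D1:**
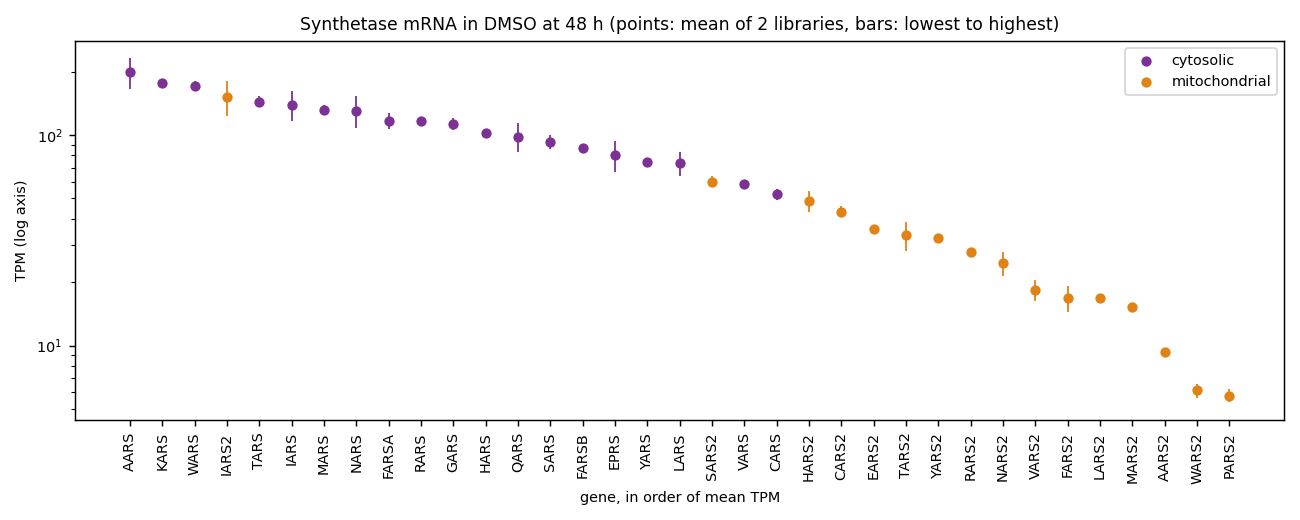
Mean TPM of the synthetases in DMSO at 48 h (points) with the lower and higher library (bars), on a log axis, cytosolic genes in purple and mitochondrial genes in orange. Cytosolic genes fill the upper range, and IARS2, at 152 TPM, is the mitochondrial gene among them.

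Under 5G6 at 48 h, 3 cytosolic synthetases fell: FARSB, KARS and VARS. No synthetase rose (1.95% of all genes were called higher), and no mitochondrial synthetase was called. The 3 called lower were 3 of 37, beside 2.11% of all tested genes called lower. FARSB encodes the beta subunit of cytosolic phenylalanyl-tRNA synthetase. FARSB (chr2:222571443-222656355) had 34.6 and 35.4 TPM in 5G6, against 87.0 and 87.3 TPM in DMSO, a log2 fold change of -1.29 ± 0.20 (SE, limma adjusted p = 0.00912). Both 5G6 libraries lay far below both DMSO libraries, whose own values differed by less than 1 TPM.

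VARS, the valine enzyme, which associates with the elongation factor that carries charged tRNA, had 27.5 and 28.9 TPM in 5G6, against 58.5 and 58.8 TPM in DMSO (-1.03 ± 0.21, limma adjusted p = 0.0214). KARS, the lysine enzyme, had 99.8 and 113 TPM in 5G6, against 173 and 181 TPM in DMSO (-0.73 ± 0.14, limma adjusted p = 0.0196). For both genes the groups did not overlap. HARS, the histidine enzyme, missed the threshold at -0.55 ± 0.14 (limma adjusted p = 0.0507), and RARS, the arginine enzyme, stood at -0.55 ± 0.21 (limma adjusted p = 0.172).

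Across the group, 17 of 20 cytosolic synthetases had a negative fold change under 5G6 at 48 h, with a median of -0.43, and 15 of 17 mitochondrial ones did, with a median of -0.55. The median of all tested genes was -0.067. Both 5G6 libraries lay below both DMSO libraries for 10 cytosolic and 12 mitochondrial synthetases, beside 28.7% of all genes. The mitochondrial genes with the smallest p were FARS2, the phenylalanine enzyme (9.97 and 9.48 TPM in 5G6, against 14.5 and 19.1 TPM in DMSO), and RARS2, the arginine enzyme (19.2 and 20.3 TPM in 5G6, against 27.0 and 28.5 TPM in DMSO). Their fold changes were -0.72 ± 0.23 (limma adjusted p = 0.103) and -0.47 ± 0.16 (limma adjusted p = 0.137). LARS2, AARS2 and EARS2 followed at -0.91, -0.70 and -0.72, and none passed the test. The deposited coverage of FARS2 was 0.177 to 0.442 over the libraries, the lowest of the members, with YARS2 next at 5.29 to 13.4. FARS2 also overlaps LOC107986515 on the same strand, so its values carry this limit. Without the first or the second 5G6 48 h library, or without the first DMSO 48 h library, 0 synthetases were called, and without the second DMSO library 1 was, FARSB. With the 48 h libraries fitted alone, 0 were called.

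Under 6D7 at 48 h, FARSB and KARS fell and no other synthetase was called, 2 of 37 beside 3.58% of all tested genes called lower and 2.39% called higher. FARSB had 36.7 and 39.1 TPM in 6D7, against 87.0 and 87.3 TPM in DMSO (-1.18 ± 0.20, limma adjusted p = 0.0107). KARS had 127 and 113 TPM in 6D7, against 173 and 181 TPM in DMSO (-0.56 ± 0.14, limma adjusted p = 0.0438). Both genes sat below DMSO in both libraries. Among the other cytosolic genes, VARS stood at -0.62, HARS at -0.39 and LARS, the leucine enzyme, at -0.68, none of which passed the test.

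The cytosolic group as a whole sat at a median of -0.028 under 6D7 at 48 h (0.054 after median-of-ratios scaling), with 11 of 20 fold changes negative, beside a median of -0.061 over all genes. The mitochondrial group sat at -0.49, with 16 of 17 negative and 11 genes below DMSO in both libraries, beside 27.1% of all genes. FARS2, whose low coverage is given above, had 8.41 and 10.2 TPM in 6D7, against 14.5 and 19.1 TPM in DMSO (-0.78 ± 0.23, limma adjusted p = 0.0655). MARS2, the methionine enzyme, had 5.69 and 10.2 TPM in 6D7, against 15.5 and 14.9 TPM in DMSO (-0.90 ± 0.29, limma adjusted p = 0.0918). EARS2, VARS2 and LARS2 stood at -0.76, -0.70 and -0.75, and none was called.

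These 6D7 values turn on chromosome M. With chromosome M kept in the total, no synthetase was called lower in 6D7 at 48 h and 3 were called higher, against 0 higher and 2 lower without it. The 3 were GARS, SARS and CARS2 at 0.86, 0.90 and 0.70 (limma adjusted p = 0.0482, 0.0451 and 0.0393), named after their values were seen, beside 10.9% of all genes called higher and 1.52% lower on that scale. The cytosolic median was 0.39 and the median of all genes 0.29. KARS stood at -0.14 and FARSB at -0.77 on that scale (limma adjusted p = 0.629 and 0.0726). Without chromosome M, GARS had 156 and 151 TPM in 6D7, against 106 and 120 TPM in DMSO (0.45 ± 0.22, limma adjusted p = 0.262). With any 1 of the 6D7 or DMSO 48 h libraries left out, KARS no longer passed the test. FARSB passed it only without the second DMSO or the second 6D7 library. In these fits FARSB stood at -1.22 to -1.14 and KARS at -0.65 to -0.47. With the 48 h libraries fitted alone, 0 were called, and after median-of-ratios scaling 1 was, FARSB.

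**Figure D2:**
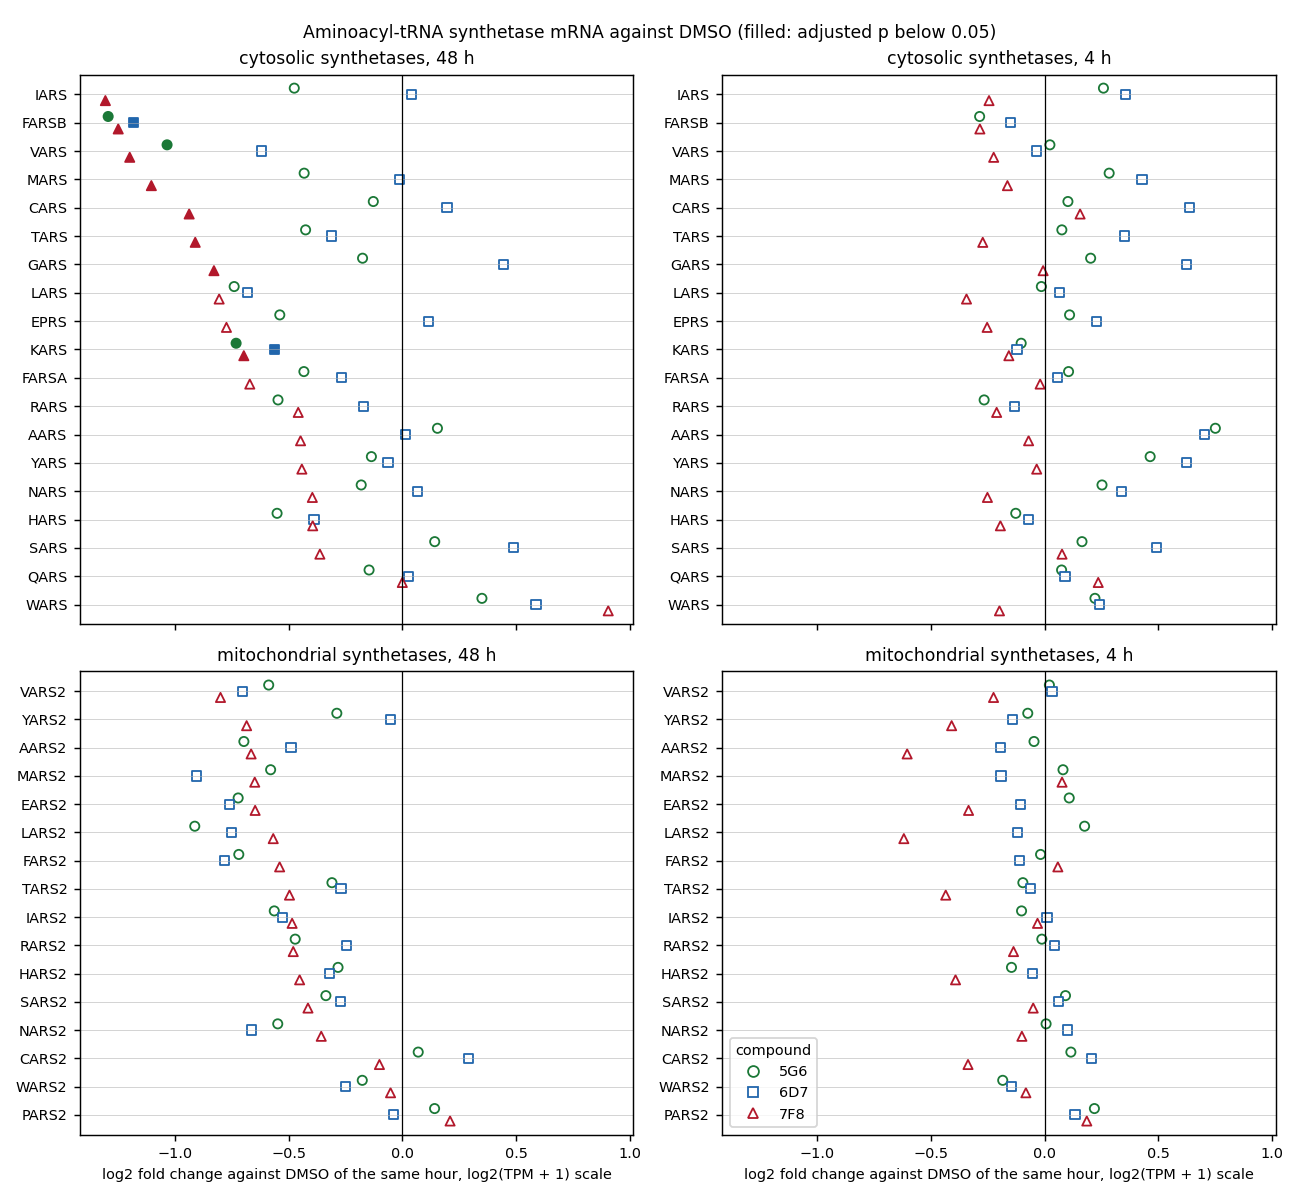
Log2 fold change of the synthetases against DMSO of the same hour, 48 h on the left and 4 h on the right, for 5G6 (green circles), 6D7 (blue squares) and 7F8 (red triangles), with called genes filled. FARSB and KARS are filled for all 3 compounds at 48 h, 8 cytosolic genes are filled for 7F8, and no mitochondrial gene and no gene at 4 h is.

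Under 7F8 at 48 h, 8 of 20 cytosolic synthetases fell, beside 6.50% of all tested genes called lower, and none rose. They were FARSB, VARS, KARS, IARS, MARS, CARS, TARS and GARS, which charge phenylalanine, valine, lysine, isoleucine, methionine, cysteine, threonine and glycine tRNAs. FARSB had 32.7 and 39.8 TPM in 7F8, against 87.0 and 87.3 TPM in DMSO (-1.25 ± 0.20, limma adjusted p = 0.00600). VARS had 22.3 and 28.1 TPM in 7F8, against 58.5 and 58.8 TPM in DMSO (-1.20 ± 0.21, limma adjusted p = 0.00826). KARS had 101 and 118 TPM in 7F8, against 173 and 181 TPM in DMSO (-0.70 ± 0.14, limma adjusted p = 0.0148). For these 3 genes both 7F8 libraries lay well under both DMSO libraries.

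IARS (chr9:92210207-92293756), whose promoter element is shown above, had 45.2 and 66.9 TPM in 7F8, against 116 and 162 TPM in DMSO, and its log2 fold change of -1.30 ± 0.26 was the lowest of the 37 (limma adjusted p = 0.0126). MARS (chr12:57488068-57516655) had 59.3 and 62.5 TPM in 7F8, against 126 and 138 TPM in DMSO (-1.10 ± 0.26, limma adjusted p = 0.0248). MARS overlaps DDIT3 on the other strand by 68 bases, and strandedness was not stated, so reads in that stretch cannot be told apart. DDIT3 itself stood at 0.63 under 7F8 at 48 h. CARS had 22.2 and 32.2 TPM in 7F8, against 49.0 and 55.4 TPM in DMSO (-0.94 ± 0.21, limma adjusted p = 0.0211). TARS had 66.1 and 87.4 TPM in 7F8, against 135 and 153 TPM in DMSO (-0.91 ± 0.21, limma adjusted p = 0.0220).

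GARS (chr7:30594735-30634033) had 55.3 and 71.9 TPM in 7F8, against 106 and 120 TPM in DMSO (-0.83 ± 0.22, limma adjusted p = 0.0365). In each of these 5 genes the groups did not overlap. The cytosolic median was -0.68, beside -0.18 over all tested genes, and 19 of 20 fold changes were negative. Both 7F8 libraries lay below both DMSO libraries for 16 of the 20, beside 38.7% of all genes. Median-of-ratios scaling, which brought the median of all genes to 0.003, left the cytosolic median at -0.47 and 5 genes called, with KARS, TARS and GARS no longer past the threshold.

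WARS, the tryptophan enzyme and a known interferon-gamma target, was the only cytosolic synthetase with a positive fold change under 7F8 at 48 h. It had 524 and 197 TPM in 7F8, against 181 and 162 TPM in DMSO (0.90 ± 0.37, limma adjusted p = 0.154), and was not called. Both 7F8 libraries were above both DMSO libraries, and the first was much the higher. Without the second 7F8 library WARS was called at 1.61 (limma adjusted p = 0.0122), and without the first it stood at 0.20 (limma adjusted p = 0.822). Of 18 tested interferon-gamma response genes other than WARS, CXCL10 and B2M were called higher under 7F8, beside 2.29% of all genes, and 16 did not pass. All 18 fold changes were positive, with a median of 1.10. Under 5G6 and 6D7 at 48 h none of the 18 was called by limma at an adjusted or unadjusted p below 0.05, 16 were positive under each, and the medians were 0.57 and 0.37. WARS stood at 0.35 under 5G6 and 0.59 under 6D7, the highest cytosolic value under each, not called. IDO1, which breaks down tryptophan, had 65.6 and 4.51 TPM in 7F8, against 2.89 and 1.28 TPM in DMSO, and its first 7F8 library was again the high one. It had 17.6 and 2.78 TPM in 5G6 and 8.02 and 1.45 TPM in 6D7 at 48 h. The first library was thus the higher in every 48 h group, DMSO included. CXCL10, a chemokine, had 22.1 and 17.7 TPM in 7F8, against 3.56 and 5.76 TPM in DMSO (1.90, limma adjusted p = 0.0123), high in both. Their part in the WARS result was not tested.

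No mitochondrial synthetase was called under 7F8 at 48 h, although 16 of 17 fold changes were negative, with a median of -0.50 (-0.28 after median-of-ratios scaling). YARS2, the tyrosine enzyme, had 17.6 and 22.2 TPM in 7F8, against 31.1 and 33.8 TPM in DMSO (-0.68 ± 0.20, limma adjusted p = 0.0512). RARS2 had 19.9 and 19.4 TPM in 7F8, against 27.0 and 28.5 TPM in DMSO (-0.48 ± 0.16, limma adjusted p = 0.0910). Both genes lay below DMSO in both libraries, as did 12 of the 17, beside 6168 of the 15958 tested genes. VARS2 and AARS2 stood at -0.80 and -0.66. LARS2, the leucine enzyme, had 11.7 and 10.2 TPM in 7F8, against 16.9 and 16.5 TPM in DMSO (-0.57 ± 0.33, limma adjusted p = 0.322).

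The 7F8 calls rested on particular libraries. Without the first 7F8 48 h library or the first DMSO 48 h library 0 synthetases were called, and without the second DMSO library 2 were, FARSB and VARS. Leaving out the second 7F8 library kept 7 of the 8, all but MARS. With the 48 h libraries fitted alone FARSB, MARS and VARS were called. The A549 markers moved in the same libraries: 10 of 10 had a negative fold change under 7F8 at 48 h, with a median of -0.91. AKR1B10, EPCAM and KRT18 were called lower, beside 6.50% of all genes. In 5G6 and 6D7 the A549 medians were -0.14 and -0.58, with KRT19 called higher in both, beside 1.95% and 2.39% of all genes. With chromosome M kept the A549 median in 6D7 was -0.16. KRT19 was called higher on that scale at 2.85 (limma adjusted p = 0.00733), beside 10.9% of all genes. The part of the A549 markers in the synthetase result was not tested.

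**Figure D3:**
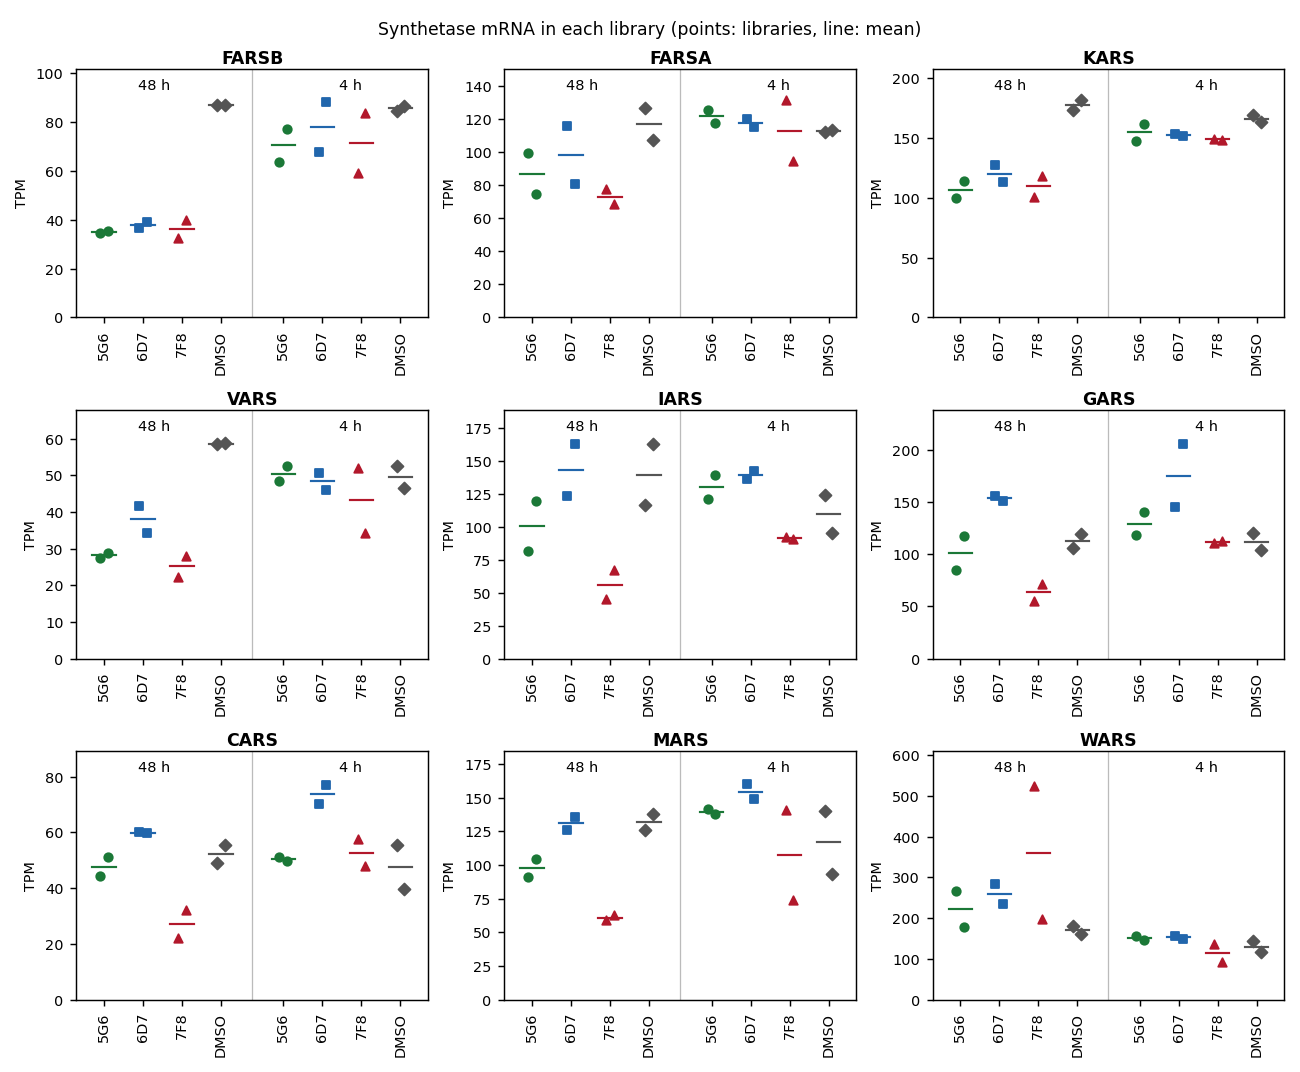
TPM of 9 cytosolic synthetases in each library, 48 h left and 4 h right of the grey line in each panel, with 5G6, 6D7, 7F8 and DMSO in that order and the mean as a line. At 48 h FARSB sits between 32.7 and 39.8 TPM in all 6 compound libraries against 87.0 and 87.3 TPM in DMSO, while GARS and CARS are lowest in the 7F8 libraries.

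FARSB and KARS fell under all 3 compounds at 48 h, in comparisons that share the same 2 DMSO libraries. Under 6D7 neither call held with chromosome M kept, as given above, and KARS was also lost after median-of-ratios scaling (limma adjusted p = 0.0991) and without the variance trend (limma adjusted p = 0.0865). FARSA encodes the partner alpha subunit of the phenylalanine enzyme and was not called under any compound. Under 7F8 it was called lower with chromosome M kept (-0.71, limma adjusted p = 0.0479) and with the replicate block (-0.67, limma adjusted p = 0.0155). It had 99.5 and 74.4 TPM in 5G6 (-0.43), 116 and 80.8 TPM in 6D7 (-0.27) and 77.6 and 68.4 TPM in 7F8 (-0.67), against 127 and 107 TPM in DMSO (limma adjusted p = 0.314, 0.529 and 0.0789). The ratio of FARSA to FARSB was 2.88 and 2.10 in 5G6, 3.15 and 2.07 in 6D7 and 2.37 and 1.72 in 7F8, against 1.45 and 1.23 in DMSO at 48 h. Every compound library was above both DMSO libraries in this ratio. At 4 h it was 1.97 and 1.52 in 5G6, 1.77 and 1.31 in 6D7 and 2.22 and 1.13 in 7F8, against 1.33 and 1.30 in DMSO, where 5G6 lay above DMSO and the 6D7 and 7F8 libraries overlapped it.

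Summed over the members, cytosolic synthetases took 1717 and 1994 TPM in 5G6, 2101 and 2293 TPM in 6D7 and 1724 and 1618 TPM in 7F8, against 2085 and 2390 TPM in DMSO at 48 h. Mitochondrial synthetases took 399 and 497 TPM in 5G6, 410 and 521 TPM in 6D7 and 382 and 472 TPM in 7F8, against 559 and 664 TPM in DMSO. Both sums were below DMSO in 5G6 and 7F8, and in 6D7 the mitochondrial sum was, while the cytosolic sums overlapped. The cytosolic sums with chromosome M kept were 1972 and 2144.5 TPM in 6D7, against 1440 and 1698 TPM in DMSO, and the mitochondrial sums were 385 and 487 TPM in 6D7, against 386 and 471 TPM in DMSO. On that scale the 6D7 cytosolic sums lay above DMSO and the mitochondrial sums overlapped. The ratio of the sums was 4.31 and 4.01 in 5G6 and 5.13 and 4.40 in 6D7, both above the 3.73 and 3.60 of DMSO. In 7F8 it was 4.52 and 3.43, on either side of DMSO.

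Of the compound pairs at matched hour and printed dose, 6 were compared, 3 at each hour, with p-values adjusted over all genes within each pair. Only 6D7 against 7F8 at 48 h gave calls: GARS, CARS and IARS were higher in 6D7, 3 of 37 beside 0.389% of all genes. GARS had 156 and 151 TPM in 6D7, against 55.3 and 71.9 TPM in 7F8, a difference of 1.27 ± 0.22 (limma adjusted p = 0.0358). CARS had 60.1 and 59.6 TPM in 6D7, against 22.2 and 32.2 TPM in 7F8 (1.13 ± 0.21, limma adjusted p = 0.0474). IARS had 123 and 162 TPM in 6D7, against 45.2 and 66.9 TPM in 7F8 (1.34 ± 0.26, limma adjusted p = 0.0488). For all 3 genes the lowest 6D7 library was above the highest 7F8 library. All 3 carry the promoter element, and the other 4 of the 7 cytosolic genes with it were not called. Of the 9 with a window and no element 0 were called, and a link to the element was not tested.

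The cytosolic median of this difference was 0.43, with 19 of 20 positive, beside 0.11 over all genes, and the mitochondrial median was 0.10, with 9 of 17 positive. An unadjusted p below 0.05 with higher values in 6D7 was reached by 8 cytosolic synthetases and by 1 mitochondrial one, YARS2, beside 9.64% of all genes. FARSB and KARS differed by 0.067 (95% interval -0.38 to 0.51) and 0.13 (-0.18 to 0.45) between 6D7 and 7F8, intervals that do not show that the compounds act alike. The calls were fragile to single libraries: without the first library of either group 0 were called, and without the second 6D7 library 1 was, GARS. With chromosome M kept, 14 synthetases were called higher in 6D7, beside 2518 of all 15285 tested genes called in either direction. With the 48 h libraries fitted alone, 0 synthetases and 0 of all genes were called.

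Between 5G6 and 7F8 at 48 h no synthetase was called (0.257% of all genes were called higher and 0.0313% lower), and 6 cytosolic genes had an unadjusted p below 0.05 with higher values in 5G6, beside 7.07% of all genes. CARS, IARS and GARS had the smallest p, at 0.81 (95% interval 0.34 to 1.28), 0.83 (0.27 to 1.39) and 0.65 (0.18 to 1.13). Between 5G6 and 6D7 at 48 h none was called (0.00627% of all genes), and GARS and EPRS had an unadjusted p below 0.05, at -0.62 (-1.096 to -0.15) and -0.65 (-1.26 to -0.048), beside 1.30% of all genes. IARS stood at -0.51 (-1.08 to 0.048). At 4 h no synthetase was called in any pair, and 1 was lower in 5G6 than in 6D7 at an unadjusted p below 0.05, CARS at -0.53 (-1.002 to -0.064), beside 0.263% of all genes. Against 7F8 at 4 h, 3 were higher in 5G6 (AARS, LARS2 and CARS2, beside 9.00% of all genes) and 8 were higher in 6D7, led by TARS, GARS and CARS2 (beside 4.47%).

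**Figure D4:**
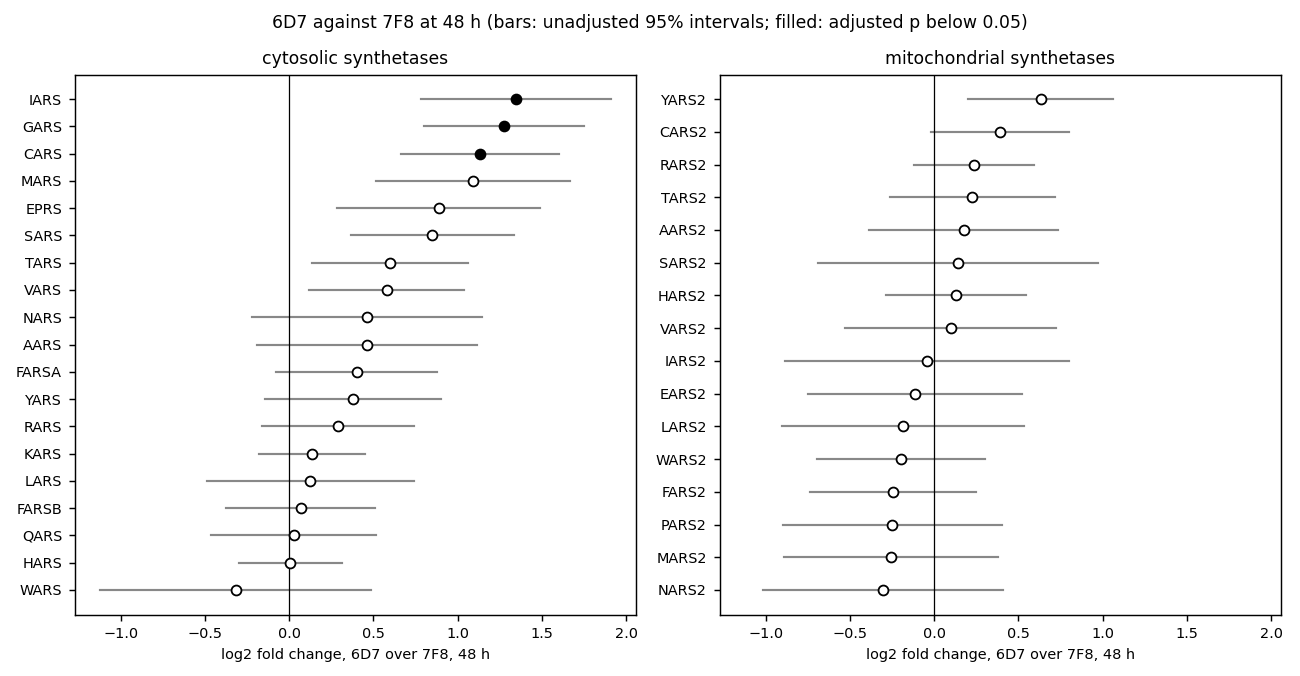
Log2 fold change of the synthetases in 6D7 over 7F8 at 48 h with unadjusted 95% intervals, cytosolic genes left and mitochondrial genes right, called genes filled. IARS, GARS and CARS lead at 1.34, 1.27 and 1.13, FARSB and KARS lie near 0, and WARS is the only cytosolic gene below 0.

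At 4 h no synthetase was called under any compound by limma, nor was any other gene (0.00% called), and the members are described by their values. Under 6D7 at 4 h, 5 cytosolic synthetases had an unadjusted p below 0.05, all higher than DMSO, beside 0.896% of all genes. CARS had 70.3 and 77.0 TPM in 6D7, against 55.6 and 39.7 TPM in DMSO (0.64 ± 0.21). GARS had 146 and 206 TPM in 6D7, against 120 and 104 TPM in DMSO (0.62 ± 0.22). YARS, AARS and SARS, which charge tyrosine, alanine and serine tRNAs, stood at 0.62, 0.70 and 0.49. The limma adjusted p was 1 for each of the 5, although both 6D7 libraries were above both DMSO libraries in every one.

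The cytosolic median under 6D7 at 4 h was 0.23, with 11 of 20 genes above DMSO in both libraries, beside 0.0063 and 12.5% over all genes. The mitochondrial median was -0.052. CARS2, the cysteine enzyme, had 49.7 and 51.2 TPM in 6D7, against 43.1 and 44.1 TPM in DMSO (0.21 ± 0.19), and AARS2 had 7.14 and 5.80 TPM in 6D7, against 8.64 and 6.54 TPM in DMSO (-0.20 ± 0.26). All 7 cytosolic genes with the promoter element had both 6D7 libraries above DMSO at 4 h, with a median of 0.43, and 3 of the 9 with a window and no element did, with a median of 0.058. Under 5G6 at 4 h 2 of the 7 and 2 of the 9 lay above DMSO in both libraries (medians 0.25 and 0.075), and under 7F8 0 of the 7 and 2 of the 9 did (medians -0.16 and -0.19), beside 22.6% and 10.1% of all genes. At 48 h the same 7 and 9 genes had medians of 0.040 and -0.17 under 6D7, -0.18 and -0.54 under 5G6, and -0.91 and -0.46 under 7F8. Under 7F8 at 48 h 5 of the 7 and 2 of the 9 were called lower, and under each of 5G6 and 6D7 0 of the 7 and 2 of the 9 were, beside 6.50%, 2.11% and 3.58% of all genes. Under 6D7 with chromosome M kept no gene of either group was called lower, and the medians were 0.46 and 0.25.

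Under 5G6 at 4 h, AARS was the only synthetase with an unadjusted p below 0.05, beside 2.95% of all genes on the higher side. AARS had 241 and 265 TPM in 5G6, against 163 and 138 TPM in DMSO (0.75 ± 0.30, limma adjusted p = 1). YARS had 96.1 and 89.8 TPM in 5G6, against 78.7 and 57.2 TPM in DMSO (0.46 ± 0.24). Both genes were above DMSO in both libraries. HARS2, the histidine enzyme of mitochondria, had 44.5 and 43.0 TPM in 5G6, against 47.3 and 49.8 TPM in DMSO (-0.15 ± 0.19), and WARS2, its tryptophan counterpart, had 6.61 and 6.12 TPM in 5G6, against 7.00 and 7.75 TPM in DMSO (-0.18 ± 0.23). The cytosolic median was 0.10 and the mitochondrial median 0.0065, beside 0.11 over all genes, and 13 members changed sign under median-of-ratios scaling, so no direction is given for the group.

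Under 7F8 at 4 h, AARS2 was the only synthetase with an unadjusted p below 0.05, beside 3.79% of all genes on the lower side. AARS2 had 6.03 and 3.48 TPM in 7F8, against 8.64 and 6.54 TPM in DMSO (-0.60 ± 0.26, limma adjusted p = 0.885). YARS2 had 30.7 and 23.0 TPM in 7F8, against 35.4 and 35.8 TPM in DMSO (-0.41 ± 0.20, limma adjusted p = 0.928). Of the cytosolic genes, FARSB had 59.0 and 83.7 TPM in 7F8, against 84.8 and 86.9 TPM in DMSO (-0.28 ± 0.20), and HARS had 101 and 88.6 TPM in 7F8, against 104 and 113 TPM in DMSO (-0.19 ± 0.14). The medians were -0.20 for the cytosolic and -0.22 for the mitochondrial group, beside -0.11 over all genes. Both 7F8 libraries lay below both DMSO libraries for 8 cytosolic and 7 mitochondrial synthetases, beside 23.4% of all genes. IARS, the lowest gene at 48 h, had 92.0 and 90.5 TPM in 7F8 at 4 h, against 124 and 94.9 TPM in DMSO (-0.24 ± 0.26), and GARS stood at -0.0066.

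The difference between the effect at 48 h and the effect at 4 h was tested for each compound, and no synthetase was called in any of the 3 tests (background 0.00%, 0.00% and, on the lower side under 7F8, 0.00627%). An unadjusted p below 0.05 was reached on the lower side by 5 synthetases under 5G6, 2 under 6D7 and 7 under 7F8, beside 5.49%, 5.12% and 5.40% of all genes, and by 0 on the higher side. VARS, FARSB and KARS led under 5G6 at -1.06, -1.01 and -0.63. FARSB, TARS and KARS led under 6D7 at -1.03, -0.66 and -0.44. Under 7F8 CARS, FARSB and VARS led at -1.09, -0.96 and -0.97. A 48 h call beside no call at 4 h is therefore not shown to be a difference between the hours.

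Cytosolic synthetases fall into class I and class II by the fold of their catalytic domain, with the bifunctional EPRS holding both. Under 7F8 at 48 h 4 of 9 class I genes and 4 of 10 class II genes were called lower, with medians of -0.80 and -0.56, beside 6.50% and a median of -0.18 over all genes. Class II held 2 of the 3 calls under 5G6 and both calls under 6D7. A group of 8 cytosolic synthetase genes, IARS, KARS and MARS among them, encodes the multi-tRNA synthetase complex. Of these, 1 was called lower under 5G6, 1 under 6D7 and 3 under 7F8, and of the 12 outside it 2, 1 and 5 were, beside 2.11%, 3.58% and 6.50% of all genes. The medians under 7F8 were -0.73 inside and -0.56 outside the complex.

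Scaffold proteins hold that complex together. AIMP2 had 60.6 and 61.3 TPM in 5G6 and 55.4 and 65.8 TPM in 6D7, against 105 and 93.3 TPM in DMSO at 48 h, and was called lower in both (-0.69 and -0.70, limma adjusted p = 0.0262 and 0.0202). AIMP1 and EEF1E1 were called lower under 7F8, at -0.69 and -1.03. EEF1E1 had 23.4 and 30.7 TPM in 7F8, against 55.4 and 56.2 TPM in DMSO (limma adjusted p = 0.0177). Of the 10 listed scaffolds and synthetase-like proteins, 1, 1 and 2 were called lower under 5G6, 6D7 and 7F8 and none higher, beside 2.11%, 3.58% and 6.50% of all genes called lower. In 6D7 AIMP2 stood at -0.29 with chromosome M kept (limma adjusted p = 0.261).

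Genes on either side of the charging step were read from further lists. Among 27 genes of tRNA transcription, processing and export, 3 were called lower under 5G6 at 48 h (ELAC2, NSUN2 and POLR3G), 2 under 6D7 (ELAC2 and POLR3K) and 5 under 7F8 (ELAC2, NSUN2, POLR3K, POLR3G and GTF3C5), beside 2.11%, 3.58% and 6.50% of all genes. Neither 6D7 call held with chromosome M kept, where ELAC2 stood at -0.23 and POLR3K at -0.84 (limma adjusted p = 0.362 and 0.0734). ELAC2, which trims the 3′ end of tRNA precursors, had 44.3 and 46.6 TPM in 5G6, 47.4 and 49.5 TPM in 6D7 and 42.5 and 49.2 TPM in 7F8, against 76.7 and 75.7 TPM in DMSO. Every compound library lay below both DMSO libraries. Of 9 cytosolic elongation and release factors, EIF5A was called lower under 5G6 (-0.89) and 7F8 (-1.01) and stood at -0.57 under 6D7. It had 991 and 997 TPM in 5G6, 1419.7 and 1080.2 TPM in 6D7 and 828.5 and 1010.2 TPM in 7F8, against 1986 and 1703 TPM in DMSO. The calls were 1 of 9 under 5G6 and 1 of 9 under 7F8, beside 2.11% and 6.50% of all genes. In 6D7 with chromosome M kept none of the 9 was called, and 8 had a positive fold change, with a median of 0.42, beside 0.29 over all genes.

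For the mitochondrial side, 0 of 19 translation factors and tRNA amidation genes were called under any compound by limma at 48 h, and 6, 6 and 8 had an unadjusted p below 0.05 on the lower side under 5G6, 6D7 and 7F8, beside 11.0%, 12.0% and 17.8% of all genes. TUFM, the mitochondrial elongation factor Tu, stood at -0.52, -0.58 and -0.46. A further list held 9 genes of mitochondrial tRNA processing, RNA stability, transcription and genome replication. Of these, SLIRP and TWNK were called lower under each compound, joined by TRMT10C under 7F8, beside 2.11%, 3.58% and 6.50% of all genes. The list mixes these functions, so its calls are not read as a result about tRNA processing. In 6D7 with chromosome M kept, SLIRP stood at -0.41 and TWNK at -0.71, neither called (limma adjusted p = 0.287 and 0.0806). TWNK, the helicase of the mitochondrial genome, had 20.8 and 16.1 TPM in 5G6, 16.3 and 18.0 TPM in 6D7 and 15.1 and 19.1 TPM in 7F8, against 39.5 and 37.1 TPM in DMSO. All 9 had a negative fold change under each compound, with medians of -0.69, -0.46 and -0.61, and with chromosome M kept 6 of 9 did under 6D7, with a median of -0.051.

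The transcription factor ATF4 had 938 and 622 TPM in 6D7, against 415 and 364 TPM in DMSO at 48 h, and was called higher (0.97 ± 0.19, limma adjusted p = 0.0166). It had 556 and 563 TPM in 5G6 (0.52, limma adjusted p = 0.160) and 258 and 265 TPM in 7F8 (-0.57, limma adjusted p = 0.0888), neither called. Of 26 target genes, TRIB3, CHAC1, NUPR1 and VEGFA were called higher under both 5G6 and 6D7, beside 1.95% and 2.39% of all genes, and none was called lower. In 6D7 ATF4 (1.39) and these 4 genes were also called higher with chromosome M kept, in a total of 8 of the 26, beside 10.9% of all genes. Under 7F8, 8 were called lower (ASNS, PYCR1, PHGDH, PSAT1, MTHFD2, SHMT2, XPOT and CBS) and CEBPB was called higher, beside 6.50% and 2.29% of all genes.

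TRIB3, a pseudokinase induced by stress, had 753 and 706 TPM in 5G6 and 455 and 645 TPM in 6D7, against 85.2 and 118 TPM in DMSO (2.85 and 2.42, limma adjusted p = 0.00788 and 0.0105). In 7F8 it had 128 and 88.6 TPM (0.090, limma adjusted p = 0.926). ASNS, which makes asparagine, had 5.97 and 10.02 TPM in 7F8, against 39.8 and 40.2 TPM in DMSO (-2.23 ± 0.25, limma adjusted p = 0.00187), and stood at -0.39 in 5G6 and 0.41 in 6D7. PHGDH, the first enzyme of serine synthesis, had 3.24 and 9.56 TPM in 7F8, against 42.9 and 42.3 TPM in DMSO (-2.70, limma adjusted p = 0.00328). XPOT, which exports tRNA from the nucleus, had 24.8 and 36.7 TPM in 7F8, against 53.7 and 71.5 TPM in DMSO (-1.01 ± 0.26, limma adjusted p = 0.0327). DDIT3, the stress factor CHOP, had 134 and 99.8 TPM in 5G6, 139 and 124 TPM in 6D7 and 65.1 and 35.7 TPM in 7F8, against 32.7 and 29.3 TPM in DMSO, above DMSO in all 6 compound libraries, and was not called under any compound (limma adjusted p = 0.199, 0.135 and 0.662).

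At 4 h TRIB3 stood at 2.15 under 5G6 and 1.99 under 6D7 and at -0.47 under 7F8 (limma adjusted p = 0.260, 0.871 and 1). ASNS stood at 0.19, 0.96 and 0.24, and ATF4 at 0.50, 0.65 and 0.28. The median of the 26 target genes was 0.40, 0.68 and -0.14 under 5G6, 6D7 and 7F8 at 4 h, and 0.20, 0.55 and -0.22 at 48 h. The cytosolic synthetases stood at 0.10, 0.23 and -0.20 at 4 h and at -0.43, -0.028 and -0.68 at 48 h. At 48 h their median under 5G6 lay on the other side of 0 from that of the target genes. Under 6D7 at 48 h the cytosolic median was near 0, beside -0.061 over all genes, and its sign depended on the scaling. After median-of-ratios scaling it was 0.054 and that of the target genes 0.62. With chromosome M kept the cytosolic median under 6D7 was 0.39 and that of the target genes 0.92, beside 0.29 over all genes.

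**Figure D5:**
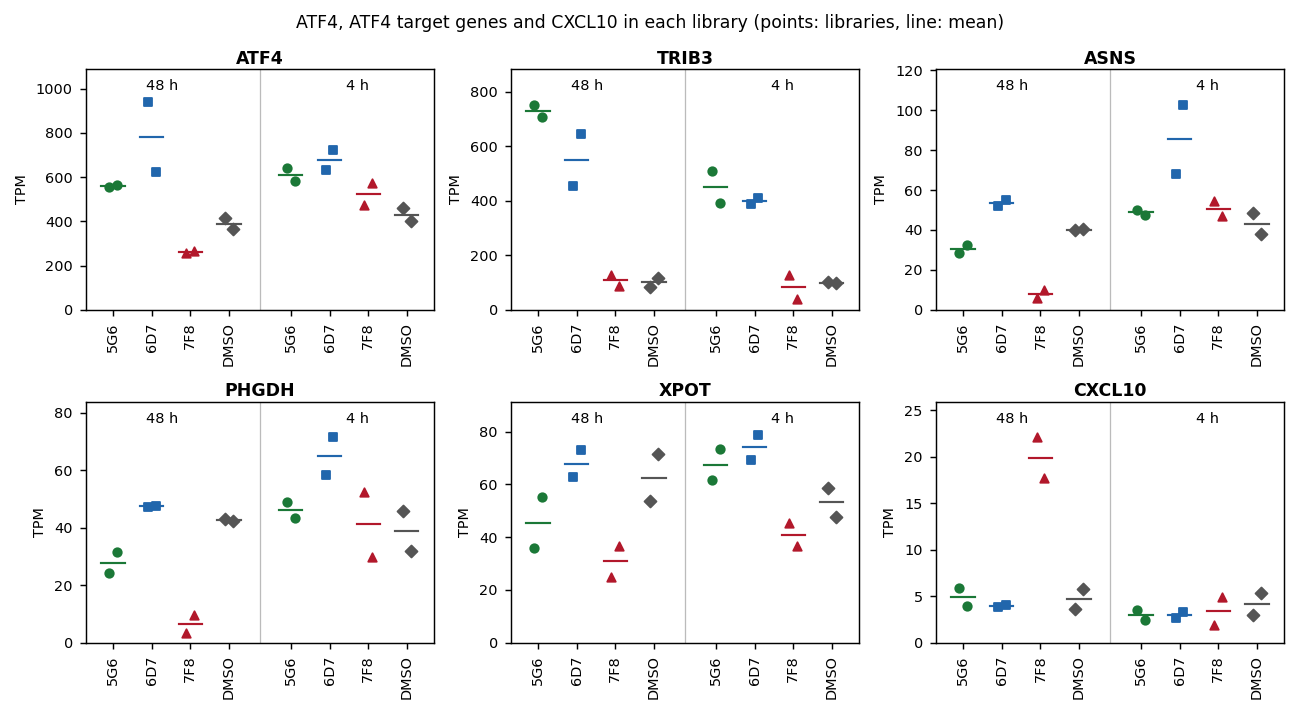
TPM of ATF4, of 4 of its target genes and of CXCL10 in each library, 48 h left and 4 h right of the grey line, with 5G6, 6D7, 7F8 and DMSO in that order and the mean as a line. TRIB3 is high in 5G6 and 6D7, ASNS and PHGDH are lowest in 7F8 at 48 h, and CXCL10 is highest in those libraries.

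Of 16 listed regulators of the integrated stress response, EIF2S1, the alpha subunit of initiation factor eIF2, was called lower under 5G6 (-0.76) and 7F8 (-0.84). EIF2S2 was called lower under 7F8 (-0.78), and the shares of all genes called lower were 2.11% under 5G6 and 6.50% under 7F8. EIF2AK3, the endoplasmic reticulum stress kinase PERK, was called higher under 6D7 (1.29), as was ATF4, given above, beside 2.39% of all genes. EIF2AK3 had 60.1 and 25.5 TPM in 6D7, against 16.5 and 14.4 TPM in DMSO, so its first library was the higher one. With chromosome M kept, 3 of the 16 were called higher under 6D7, ATF4, EIF2AK3 (1.68) and PPP1R15A (2.16), beside 10.9% of all genes. Of 15 amino acid transporters, SLC1A5, a glutamine carrier, was called lower under 7F8, with 161 and 179 TPM in 7F8, against 297 and 293 TPM in DMSO (-0.79, limma adjusted p = 0.0171). This 1 call of 15 stands beside 6.50% of all genes called lower, so it is not read as a result about the list. No transporter was called under 5G6, nor under 6D7 with chromosome M left out. There SLC1A5 stood at -0.24 under 5G6 and -0.095 under 6D7, and SLC7A5, a leucine carrier, at -0.74 and -1.09. With chromosome M kept, SLC38A1 (1.05) and SLC6A9 (1.03) were called higher under 6D7 (limma adjusted p = 0.0243 and 0.0298), 2 of 15 beside 10.9% of all genes. CD63, which the transgene also carries, had 2609 and 2441 TPM in 5G6, 2733 and 2186 TPM in 6D7 and 1905 and 1524 TPM in 7F8, against 1902 and 2054 TPM in DMSO at 48 h, and was not called under any compound (0.35, 0.31 and -0.21).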

How the data were processed

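RNA of 16 libraries (8 groups of 2, from the labels) was analysed from 1 deposited gene abundance table per library. Per the labels' protocols, polyA libraries were made with a NEBNext Ultra kit from TRIzol RNA treated with DNase I, and strandedness was not given. The submitters' processing notes name STAR 2.6.1a, featureCounts 1.6.3, StringTie 2.0 and GRCh38, with no order or role. TPM values were deposited by the authors, scaled to the same sum in each library with mitochondrial genes included. FPKM and coverage values were deposited by the authors in the same tables, per the file headers. They served here to derive aligned bases, and coverage is also given for FARS2 and YARS2.

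TPM of rows with the same gene name was added, chromosome M was left out and the rest rescaled to 1000000. Genes with at least 1 TPM in at least 2 libraries (15958 of 26156 above 0) were fitted as log2(TPM + 1) in limma 3.58.1 (R 4.3.3). The model had a mean for each of the 8 groups and left 8 residual degrees of freedom, and variances were moderated along a mean-variance trend (prior degrees of freedom 3.80, median over genes). All tests are two-sided, and p-values were adjusted by Benjamini-Hochberg over the 15958 genes of each of the 16 comparisons. Nothing in the labels says how the 2 replicates of a group were raised, so p-values reflect only how these samples vary, which may be technical, and no read counts were used. Identical TPM values made up at most 0.0399% of 15036 genes between any pair of libraries. The fit was tested on simulated data.

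The members and lists were chosen with earlier results of these data known, so lists are described by counts and medians with no test. The text names called genes, those with the smallest p in each group, and WARS, IARS, AARS, GARS, LARS2, ATF4, ASNS, TRIB3, DDIT3, XPOT and CD63. Of the 37 members, 17 overlap a gene on the other strand and 6 one on the same strand, and their values can include reads of that gene. HARS and HARS2 overlap by 302 bases. The 3 members CARS, VARS and VARS2 had several rows. A few members are counted in the totals and medians but not reported singly or plotted here. Promoters came from RefSeq, GRCh38.p14, with windows matched for 30 of 37 members. Alternatives were TPM with chromosome M, median-of-ratios scaling, a pseudocount of 0.1, no filter, no variance trend, a replicate block, the libraries of 1 hour alone, and leaving out each library. Chromosome M was also kept for the lists, promoter groups and sums of 6D7 against DMSO at 48 h, an alternative chosen after seeing the data. Python 3.11.15 with numpy 2.4.6 and pandas 2.3.3 prepared the tables, and matplotlib 3.10.9 made the plots.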

Additional observations from a re-analysis of the deposited data

How the results depend on the processing

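Every called synthetase kept its direction under every alternative run. The counts of calls at 48 h moved: against DMSO, 3 were called under 5G6, 2 under 6D7 and 8 under 7F8, and with the 48 h libraries alone 0, 0 and 3. Leaving out 1 library gave 0 to 1, 0 to 4 and 0 to 8. Median-of-ratios scaling gave 1 under 6D7 and 5 under 7F8, and no variance trend gave 1 under 6D7. For 6D7 against 7F8 at 48 h the count was 3, and it was 14 with chromosome M kept, 1 with no filter, 1 with no variance trend, 0 with the 48 h libraries alone and 0 to 3 without 1 library. With chromosome M kept, 6D7 against DMSO at 48 h gave 3 higher and 0 lower. All other comparisons gave 0 synthetases throughout. Over all genes, 648, 953 and 1403 were called at 48 h under 5G6, 6D7 and 7F8, against 6, 7 and 252 with the 48 h libraries alone and 1709, 2000 and 2721 with the replicate block. With chromosome M kept, 1899 genes were called under 6D7 against 953, and 2518 for 6D7 against 7F8 where 78 were.

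Samples with the same replicate number share only that number in the labels. Their deviations from the group means correlated at 0.0536 to 0.588 over 28 pairs of groups (median 0.310), above 0.1 in 25 pairs. With the replicate number as a block, 5, 4 and 16 synthetases were called at 48 h under 5G6, 6D7 and 7F8, and 6 for 6D7 against 7F8. Under 7F8, 15 were lower and WARS was higher (limma adjusted p = 0.0412).

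The cytosolic medians under median-of-ratios scaling were -0.028 (5G6 at 4 h), -0.089 (7F8 at 4 h) and -0.47 (7F8 at 48 h), and the mitochondrial ones -0.12 (5G6 and 7F8 at 4 h), -0.46 (5G6 at 48 h) and -0.28 (7F8 at 48 h). With chromosome M kept, the mitochondrial medians were 0.039 (5G6 at 4 h), -0.019 (6D7 at 4 h) and -0.11 (6D7 at 48 h), and the cytosolic one 0.39 (6D7 at 48 h). Leaving out 1 library gave cytosolic medians of 0.02 to 0.15, 0.11 to 0.29 and -0.22 to -0.060 under 5G6, 6D7 and 7F8 at 4 h, and -0.54 to -0.21, -0.20 to 0.11 and -0.74 to -0.57 at 48 h. The mitochondrial ones were -0.067 to 0.047, -0.11 to 0.038 and -0.36 to -0.17 at 4 h, and -0.57 to -0.28, -0.49 to -0.27 and -0.62 to -0.44 at 48 h. The cause of these moves was not tested.

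With 2 libraries a group, a gene can miss the threshold in 1 fit and pass it in another, so members near an adjusted p of 0.05 (HARS under 5G6, YARS2 under 7F8) are not shown to differ from those called. Depth was known only as aligned bases, so no counting error is given for a TPM.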
